A study of Homo sapiens with 2 samples.

Results

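The proteins of the cytosolic ribosome were followed in the messenger RNA of HEK293 cells with and without the kinase PERK. The genes were taken by symbol, as RPL or RPS followed by a digit together with RPLP0, RPLP1, RPLP2 and RPSA, and RPS6K kinases, antisense rows and pseudogene rows were left out. Of 25277 rows in each table, 137 carried such a symbol and 90 genes were kept. They comprised 77 core ribosomal protein genes, 10 paralogs and 3 read-through rows, and by name 35 belonged to the small (40S) subunit and 55 to the large (60S) subunit. The rows left out included 28 pseudogene rows, 11 S6 kinases, 1 antisense row, 1 gene for a binding protein of RPS19, and 5 copies of RPS18 on alternate haplotypes that were all listed at 0.

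HEK293 is an established line derived from human embryonic kidney. One group was wild-type (WT) and the other was PERK-KO, in which the gene for PERK (EIF2AK3) had been targeted with CRISPR/Cas9 and single cells had been expanded. Which guide and which clone gave the sequenced RNA is not given in the sources used here. Both cultures were kept for 12 h in OXPHOS medium, which has galactose and pyruvate but no glucose. This medium makes cells depend on oxidative phosphorylation. Poly(A) RNA of 1 sample per genotype was sequenced. The comparison asks how the transcriptome differs when PERK is missing under that condition.

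There was no replicate, so each difference is between 2 libraries, and a clone, a culture and the genotype cannot be told apart. The unit was FPKM, fragments scaled to the length of the transcript and the size of the library, as deposited with lower and upper confidence limits. These limits cover the estimate within a library and not the spread between cultures. The number of reads per library is unknown. EIF2AK3 itself was at 5.61 FPKM (limits 5.11 to 6.12) in the WT sample, and 3.89 (3.44 to 4.34) in the PERK-KO sample, and an FPKM cannot show a small deletion in the coding sequence. Of the HEK293 markers, KRT8, KRT18 and NEFL were between 44.9 and 640 FPKM in the WT sample, and between 33.4 and 437 in the PERK-KO sample, whereas INA, NEFM and PAX2 were under 1 FPKM in the former and at 4.13, 5.21 and 0.75 FPKM in the latter. Markers of other cells were low, with ALB listed at 0 in both samples and PTPRC, PECAM1 and COL1A1 at no more than 4.97 FPKM.

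Each ribosome joins a small subunit, which reads the messenger RNA, to a large subunit, which forms the peptide bond and holds the tunnel through which the new chain leaves. Nearly every ribosomal protein is present in a single copy per ribosome, and cells make the proteins of both subunits in balance. In vertebrates most of their messenger RNAs start with a C followed by a run of pyrimidines. This 5′ terminal oligopyrimidine (TOP) motif lets the mTOR pathway and the RNA-binding protein LARP1 control their translation and stability together. PERK phosphorylates eIF2α in the unfolded protein response and thereby lowers general translation.

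The starts of 7 genes named below are shown because they carry, or lack, that shared element. They were read from RefSeq promoters of build GRCh38.p14, with 10 bases before the listed start and 20 bases from it, 5′ to 3′ on the strand of the gene. Capitals mark the C at the start and the pyrimidines that follow it without a break. RPL10 and RPS19 have 3 and 2 listed starts, and a start with the longest run is shown.
RPL21: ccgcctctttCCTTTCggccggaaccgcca
RPS21: ctagctgcttCCTTTCTCTCTCgcgcgcgg
RPS19: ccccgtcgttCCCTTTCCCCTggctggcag
RPS14: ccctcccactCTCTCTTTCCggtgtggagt
RPL10: ggaggagcgcCTCTTTCCCTTCggtgtggt
RPL14: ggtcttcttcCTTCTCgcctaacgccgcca
RPL4: cgggagtggtaagcacttccttttcctgtg
The run had 6 bases in RPL21 (chr13:27251548-27251577, plus strand) and in RPL14 (chr3:40457329-40457358, plus strand). It had 12 bases in RPS21 (chr20:62387093-62387122, plus strand) and in RPL10 (chrX:154398367-154398396, plus strand). RPS19 (chr19:41860245-41860274, plus strand) had 11 and RPS14 (chr5:150449720-150449749, minus strand) had 10. In RPL4 (chr15:66504836-66504865, minus strand) the listed start was not a C, and the longest run, of 12 pyrimidines, began at base 6 from the listed start.

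Ribosomal protein messenger RNAs were among the most abundant in both samples. In the WT sample the core genes ranged from 306 to 13204 FPKM with a median of 2382, and in the PERK-KO sample from 60.5 to 11687 with a median of 1873. Of the 50 rows with the highest FPKM, 34 were core ribosomal protein genes in the WT sample, and 30 in the PERK-KO sample. The 90 genes together held 23.4% of the summed FPKM in the WT sample, and 20.2% in the PERK-KO sample.

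The order of the genes was much the same in both samples, with a Spearman rho of 0.94 between their levels over 77 genes. RPS2, a protein at the entry of the mRNA channel, had the highest level, 13204 FPKM in the WT sample, and 11687 in the PERK-KO sample. It was followed in the WT sample by RPL41, the smallest ribosomal protein, with 11179 and 7081 FPKM. RPLP1, an acidic protein of the stalk, came next with 6921 and 5472 FPKM. The limits of these 3 genes did not overlap with each other in either sample. At the other end stood RPL27A with 306 and 236 FPKM, RPL21 with 357 and 60.5, and RPL22, which binds viral and cellular RNA hairpins, with 423 and 313. RPL27A and RPL22 were lower in the PERK-KO sample by similar factors, and RPL21 by a larger one.

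**Figure D1:**
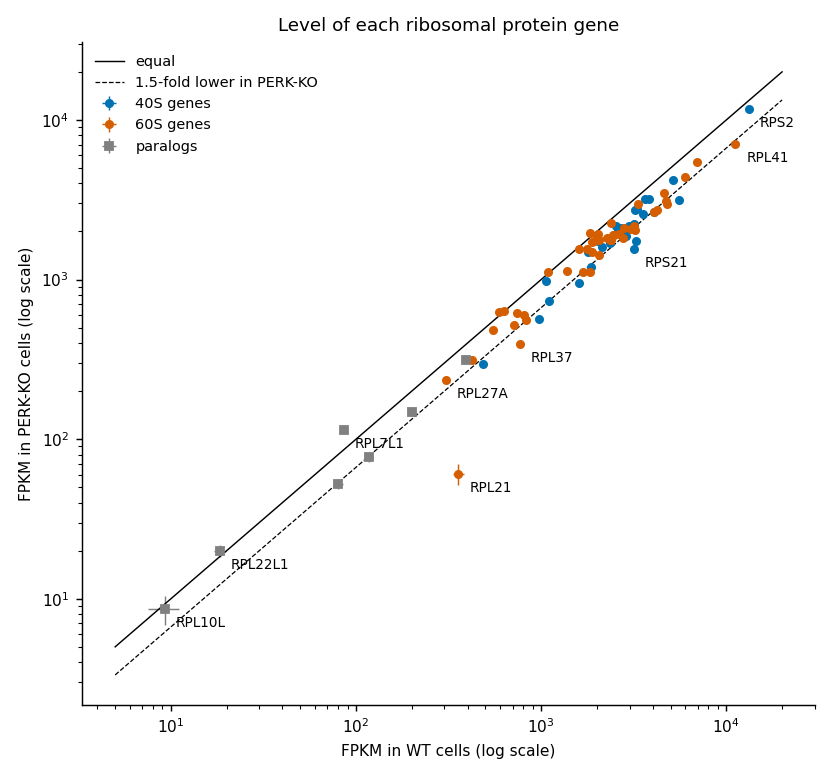
FPKM of each gene in the WT (horizontal) and PERK-KO sample (vertical), both on log scales, with core 40S genes in blue, core 60S genes in orange and paralogs as grey squares. Bars are the deposited confidence limits, the solid line marks equal values and the dashed line a value 1.5-fold lower in the PERK-KO sample. Most core genes lie between the lines or near the dashed one, and RPL21 lies far below it at 357 and 60.5 FPKM.

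Messenger RNAs of the ribosomal proteins were lower in the PERK-KO sample across both subunits. A difference is given as the log2 ratio of PERK-KO to WT FPKM, and genes were used if they reached 1 FPKM in at least one sample and were above 0 in both. Of the 90 genes, 86 met this, and RPL3L, RPS10-NUDT3 and 2 paralogs of RPS4X did not. The median log2 ratio of the 86 was -0.42, against 0.04 over all 14439 rows that met the same filter. Below 0 were 80 of the 86, against 6700 of the 14439. Of 1085 rows at 100 FPKM or more outside the kept genes, 792 were below 0.

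More than 1.5-fold lower were 23 of the 86 (26.7%), against 7.15% of all rows tested. None was more than 1.5-fold higher, against 9.65% of all rows. The limits of the samples lay apart with the lower value in the PERK-KO sample for 76 genes, against 18.8% of all rows, and with the higher value in the PERK-KO sample for 2 genes, RPL4 and RPL7L1, against 26.3%. Because FPKM is relative to the rest of the library, a lower value can mean less of the RNA or more of other RNA. The PERK-KO to WT ratio of summed FPKM was 0.75 for the ribosomal protein genes and 0.87 for all rows. Abundant rows outside the kept ribosomal protein genes were also lower, with a median of -0.25 over 1085 rows at 100 FPKM or more. The median was -0.29 over 60 rows at 1000 FPKM or more. In these groups 18.2% and 26.7% were more than 1.5-fold lower. Limits lay apart with the lower value in the PERK-KO sample for 663 of the 1085 rows and 37 of the 60. The reverse held for 161 and 5. The median WT level was 2194 FPKM over the 86 genes and 9.46 over all rows tested. Both groups still held ribosomal pseudogene rows, small RNA rows and ribosomal proteins with other names, such as FAU.

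**Figure D2:**
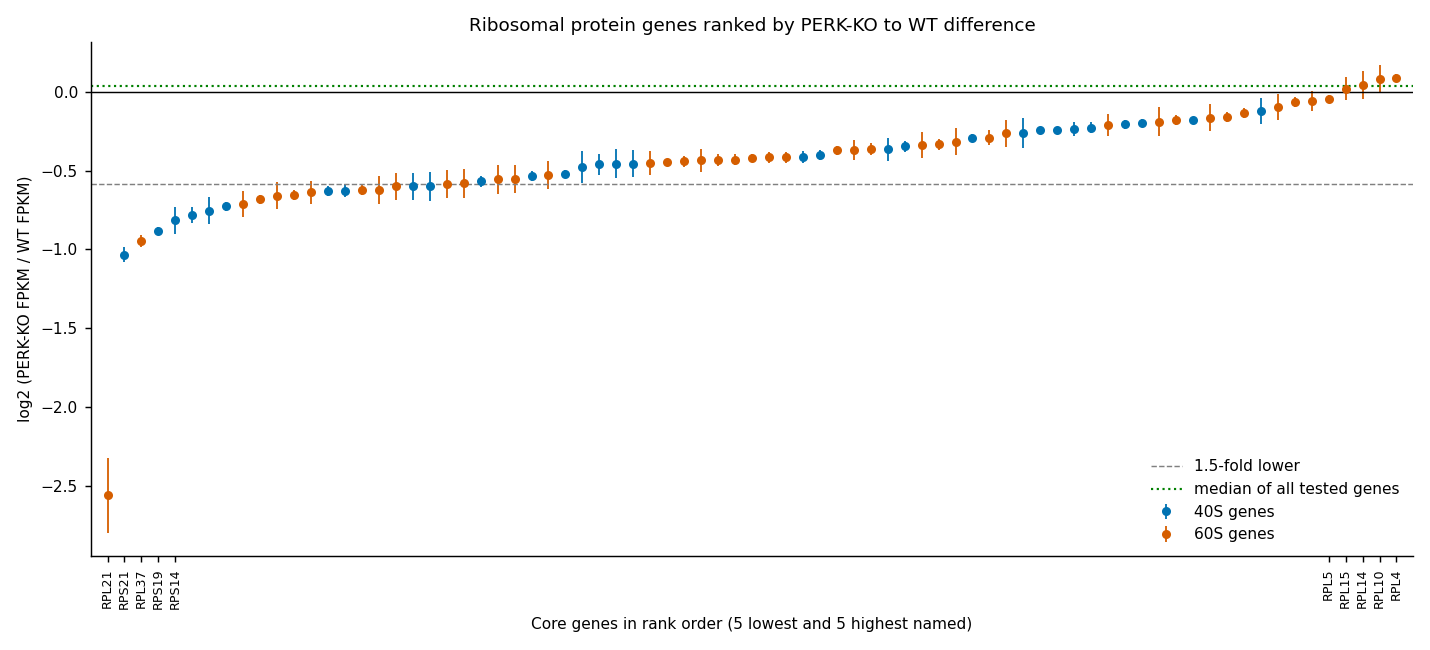
Log2 ratio of PERK-KO to WT FPKM of the 77 core genes in rank order, with 40S genes in blue and 60S genes in orange. Bars are 2 counting standard errors from the deposited limits, the dashed line marks 1.5-fold lower and the dotted line the median of all rows tested, 0.04, and the 5 lowest and 5 highest genes are named. A gradual slope runs from RPS21 at -1.03 to RPL4 at 0.09, with RPL21 apart at -2.56.

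The medians of the small and the large subunit differed little. The 31 core genes of the 40S subunit had a median of -0.46, with quartiles at -0.61 and -0.25, and ranged from -1.03 to -0.12. The 46 core genes of the 60S subunit had a median of -0.42, with quartiles at -0.57 and -0.18, and ranged from -2.56 to 0.09. The 40S median was thus lower by only 0.040 on the log2 scale, far less than the spread within either subunit, and no test was possible with 1 sample per genotype. In each subunit 10 genes were more than 1.5-fold lower. This was 32.3% of the 40S genes and 21.7% of the 60S genes, against 7.15% of all rows.

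In the 40S subunit all 31 genes were lower with limits apart. In the 60S subunit 40 were lower and 1 was higher with limits apart, and the limits of 5 overlapped. Over all rows tested, 18.8% were lower and 26.3% higher with limits apart. Of 1085 other rows at 100 FPKM or more, 663 were lower and 161 higher with limits apart. The summed FPKM of the large subunit was 1.19 times that of the small subunit in both samples. Without RPL21 the median of the 60S genes was -0.41.

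RPL21, a large subunit protein bound to ribosomal RNA, was the single core gene that stood far from the others. Its row (chr13:27825692-27830702, GRCh37, plus strand) held 357 FPKM in the WT sample (limits 333 to 381) and 60.5 in the PERK-KO sample (51.4 to 69.6). That is 5.90-fold lower, a log2 ratio of -2.56 with a counting standard error of 0.12. The core median was -0.42 and its scaled median absolute deviation 0.27, which put RPL21 8.06 of these units below it. The core gene next to it, RPS21, was 2.31 units below.

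A second row covered the same place. RPL21P28, named as a pseudogene, spanned chr13:27825693-27830699 and shared 5007 of the 5011 bases of the RPL21 row. It held most of the signal, with 1695 FPKM (1617 to 1773) in the WT sample, and 1147 (1092 to 1202) in the PERK-KO sample, a log2 ratio of -0.56. A further row, RPL21P44 on chromosome 4, held 9.15 and 6.53 FPKM. The RPL21 row made up 17.3% of the sum of the 3 rows in the WT sample, and 4.98% in the PERK-KO sample.

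For the sum of the 3 rows, 2061 FPKM in the WT sample, and 1214 in the PERK-KO sample, the log2 ratio was -0.76, which lies within the range of the other core genes. How reads were divided between the overlapping rows was not tested, and the value of RPL21 alone is uncertain for that reason. SNORD102 and SNORA27, small nucleolar RNAs within the locus, were listed at 0 in the WT sample, and at 87.8 and 19.9 FPKM in the PERK-KO sample, with lower limits of 0.

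RPL13A, a protein of the large subunit, had the same kind of arrangement. Its pseudogene row RPL13AP5 overlapped 89.0% of the locus and held 5914 FPKM in the WT sample, and 4242 in the PERK-KO sample. RPL13A itself was at 712 and 521 FPKM. Its share of the sum with its 5 pseudogene rows was 9.00% and 9.30%, so that the division was nearly equal in the samples, unlike at RPL21. RPS26, with shares of 72.2% and 72.5%, and RPSA, with 67.2% and 67.5%, were likewise stable. Summing pseudogene rows with the parent changed the log2 ratio by more than 2 counting standard errors in 1 of 17 genes that had such rows, RPL21, while RPL13A went from -0.45 to -0.50.

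**Figure D3:**
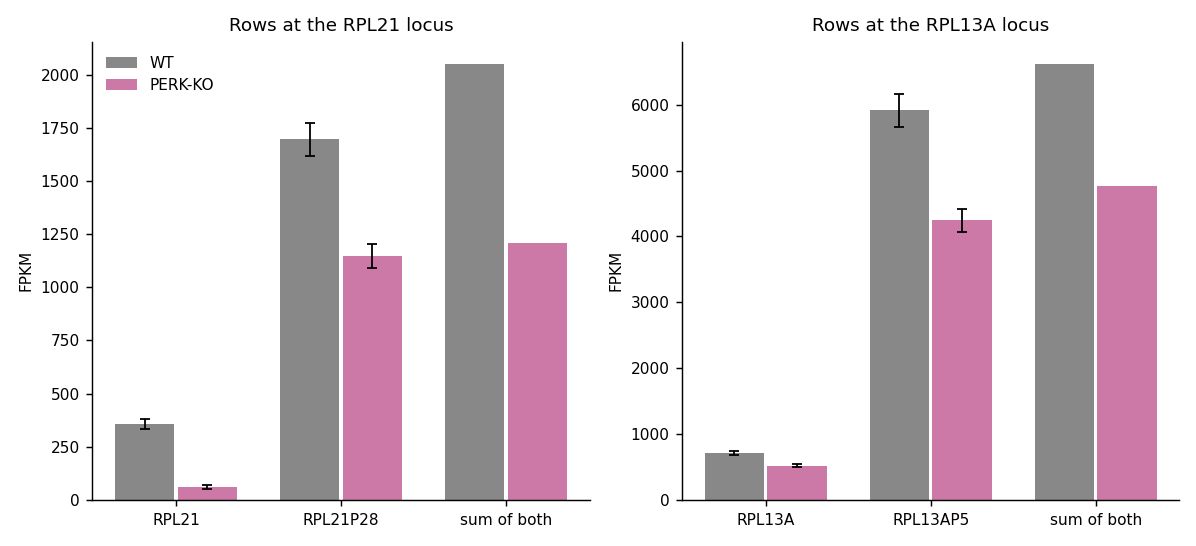
FPKM of the gene row, of the pseudogene row at the same locus and of the sum of both, for RPL21 (left) and RPL13A (right), in the WT (grey) and PERK-KO (pink) sample. Bars start at 0, error bars are the deposited limits, and the sums have none. The RPL21 row is lower by a larger factor than RPL21P28, while RPL13A and RPL13AP5 are lower by similar factors.

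Beside RPL21, the 4 core genes with the lowest ratios were RPS21, RPL37, RPS19 and RPS14. RPS21, a small protein of the 40S subunit, was at 3177 FPKM (3120 to 3235) in the WT sample, and 1552 (1510 to 1595) in the PERK-KO sample, a log2 ratio of -1.03 ± 0.024 (counting standard error). RPL37, a zinc-binding protein of the 60S subunit, was at 765 and 397 FPKM, a log2 ratio of -0.95. RPS19, which is needed to mature 18S ribosomal RNA and is the gene most often mutated in Diamond-Blackfan anaemia, was at 3239 and 1753 FPKM, a log2 ratio of -0.89. RPS14, whose loss contributes to the anaemia of the 5q- syndrome, was at 5526 and 3140 FPKM, a log2 ratio of -0.82. For each of the 4 the limits lay far apart.

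The 5 core genes with the highest ratios were all from the large subunit. RPL4, whose long loop lines the exit tunnel, was at 1838 FPKM (1821 to 1856) in the WT sample, and 1958 (1939 to 1977) in the PERK-KO sample, a log2 ratio of 0.09 ± 0.010. RPL10, which completes the 60S subunit as one of its last proteins, was at 594 and 629 FPKM. RPL14 was at 1086 and 1119 FPKM, and RPL15 at 626 and 635. The limits of RPL10, RPL14 and RPL15 overlapped between the samples. RPL5 was at 1605 FPKM (1585 to 1625) in the WT sample, and 1557 (1536 to 1578) in the PERK-KO sample, with limits that just failed to overlap. The row of FAM69A covers 93.0% of the RPL5 locus and was at 7.72 FPKM in the WT sample.

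By place in the ribosome, the groups given here differed in their medians but were small. Their counts past 1.5-fold lower stand beside 26.0% of core genes and 7.15% of all rows. The 3 proteins at the exit of the mRNA channel, RPS14, RPS26 and RPS28, were all more than 1.5-fold lower, with a median of -0.78. The beak of the small subunit (RPS10, RPS12 and RPS27A) had a median of -0.60, with 2 genes more than 1.5-fold lower. In the 6 proteins of the foot, RPS6 included, the median was -0.24 and none passed 1.5-fold. The entry of the channel, RPS2 and RPS3, had a median of -0.27, and the decoding side, RPS15 and RPS23, of -0.48. In that order, the median coding lengths of these groups were 345, 468, 603, 804 and 432 bases. The part of length in these differences was not tested.

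RPS27A, made as a fusion with ubiquitin, was at 1602 FPKM in the WT sample, and 949 in the PERK-KO sample, a log2 ratio of -0.76. RPS6, the substrate of the S6 kinases, was at 3189 and 2224 FPKM, a log2 ratio of -0.52. The limits of both genes lay apart.

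In the large subunit, the 3 genes near the peptidyl transferase centre (RPL3, RPL8 and RPL10) had a median of -0.06 and none passed 1.5-fold. The wall of the tunnel (RPL4, RPL17 and RPL39) had a median of -0.41. Its exit ring (RPL19, RPL23A, RPL26, RPL31 and RPL35) had a median of -0.55. In each of the 2, 1 gene was more than 1.5-fold lower, against 26.0% of core genes and 7.15% of all rows. The median coding lengths were 771 bases near the centre, 552 in the wall and 435 in the exit ring. The stalk, which recruits elongation factors, was uneven. Its base RPLP0 was at 2005 and 1873 FPKM with overlapping limits, RPLP1 at 6921 and 5472, and RPLP2 at 4771 and 2974, for log2 ratios of -0.10, -0.34 and -0.68. The coding lengths of RPLP0, RPLP1 and RPLP2 were 951, 342 and 345 bases. With RPL12 the 4 stalk genes had a median of -0.24.

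RPL5 and RPL11, which bind 5S RNA and restrain MDM2 when assembly fails, had log2 ratios of -0.04 and -0.21. RPL11 was at 2054 FPKM in the WT sample, and 1775 in the PERK-KO sample. Of 18 listed genes mutated in Diamond-Blackfan anaemia, 17 were below 0, against 73 of 77 core genes and 6700 of all 14439 rows. More than 1.5-fold lower were 5 of the 18 (27.8%). That share was close to the 26.0% of core genes, and 7.15% of all rows were as low. Their median of -0.44 was also close to the core median.

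Paralogs were expressed at lower levels than the genes they resemble. RPL7L1, which acts in assembly of the large subunit, was at 85.6 FPKM (81.6 to 89.6) in the WT sample, and 113 (109 to 118) in the PERK-KO sample. This log2 ratio of 0.41 ± 0.046 was the highest of the 86 genes, while its parent RPL7 was at 2365 and 1765 FPKM, a ratio of -0.42. RPL22L1 was at 18.4 and 20.0 FPKM with overlapping limits, whereas RPL22 had a ratio of -0.43 with limits apart. In both pairs the paralog had the higher ratio, and the difference within a pair was not tested.

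Of the other 5 paralogs, 4 were lower with limits apart, against 18.8% of all rows. The parents of these 4 were lower with limits apart too. RPS27L, a target of p53, was at 80.4 and 52.6 FPKM, a log2 ratio of -0.61 against -0.24 for RPS27. RPL26L1 was at 117 and 77.7 FPKM, a ratio of -0.59 against -0.65 for RPL26. RPL39L was at 200.1 and 148 FPKM, a ratio of -0.43 against -0.41 for RPL39. RPL36AL followed with 391 and 315 FPKM, a ratio of -0.31 against -0.58 for RPL36A. RPL10L was at 9.31 and 8.67 FPKM with overlapping limits, beside RPL10 at 594 and 629. Paralogs resemble their parents in sequence to different degrees, and reads that fit both can make these values uncertain. How alike each pair is was not tested.

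The read-through rows join a ribosomal protein gene to its neighbour. RPL36A-HNRNPH2 was at 56.8 and 46.4 FPKM, RPL17-C18orf32 at 1.18 and 0.40, and RPS10-NUDT3 at 0.71 and 0.26. The last 2 were more than 3 scaled deviations below the core median, but their limits overlapped between the samples.

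The ratio moved with the length of the coding sequence. Over 76 core genes with a coding length, from 75 to 1281 bases, the Spearman rho of the log2 ratio with that length was 0.53, and it was 0.54 without RPL21. It was 0.43 over 30 genes of the 40S subunit and 0.59 over 46 genes of the 60S subunit. Over 11753 other genes tested it was 0.42. These are correlations across genes of the same 2 libraries, and genes are not independent replicates.

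In every length band up to 1000 bases, core genes lay below other genes. For coding sequences of up to 300 bases the median was -0.63 over 9 core genes and -0.39 over 225 other genes. From 300 to 500 bases it was -0.46 over 37 core genes and -0.26 over 681 other genes. From 500 to 700 bases it was -0.29 over 16 and -0.15 over 1044, and from 700 to 1000 bases -0.28 over 12 and -0.10 over 1695.

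When the other genes were limited to those at 100 FPKM or more, the gap was small. Their medians were -0.59, -0.45, -0.36 and -0.25 in the same 4 bands, which is within 0.1 of the core genes in each. From 500 to 700 bases the core genes lay above them, at -0.29. More than 1.5-fold lower were 66.7% of core genes and 50% of these other genes in the first band. The shares were 29.7% and 31.2% in the second, 18.8% and 24% in the third, and 0% and 10% in the fourth. Only in the first band was the core share the higher one. RPL3 and RPL4, the core genes with the longest coding sequences, had a median of 0.02. Other genes of 1000 to 1300 bases had a median of 0.00, and those at 100 FPKM or more of -0.10, so that here the core genes lay above both. RPS21 and RPL37, with 249 and 291 bases, were lower than the median of either set of other genes in their band. The part of length and level in the lower values of the ribosomal protein genes was not tested.

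**Figure D4:**
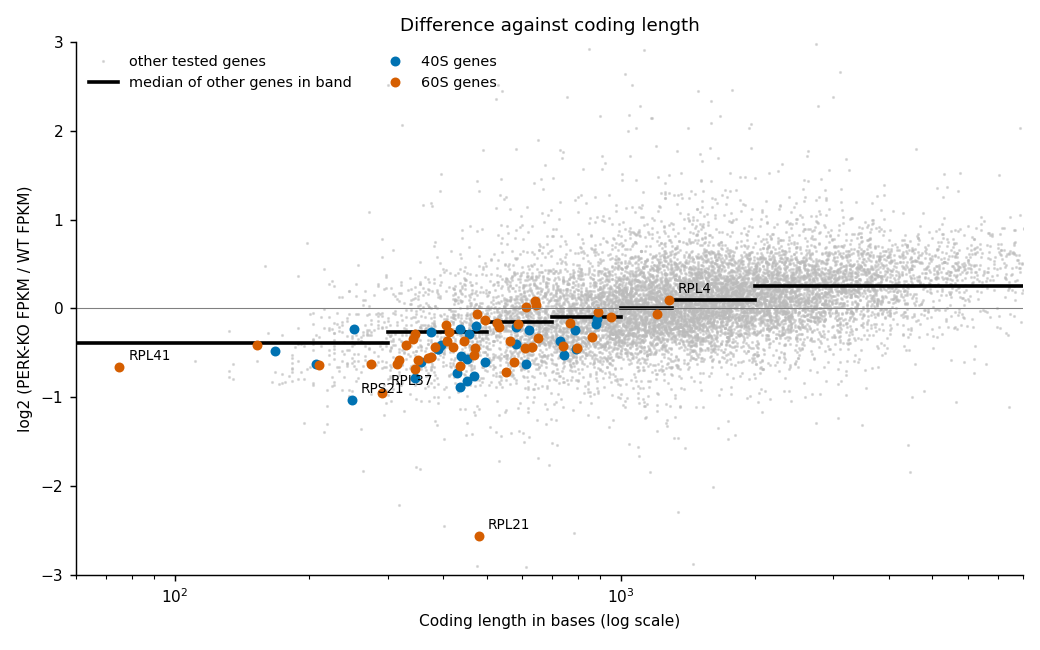
Log2 ratio of PERK-KO to WT FPKM against coding length in bases (log scale) for core 40S genes (blue), core 60S genes (orange) and other genes tested (grey), with black lines for the median of the other genes in each length band. Values beyond 3 on either side and lengths outside the axis are not drawn. The ratio climbs with length in all sets, from -0.63 in core genes of up to 300 bases to 0.02 in RPL3 and RPL4.

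At the start of transcription, the TOP motif was common among core genes and rare among all genes, and core genes with and without it differed modestly. A start with C and at least 4 further pyrimidines was found for 46 of 62 core genes that the RefSeq table lists (74.2%), against 5.14% of all 27305 symbols. The 46 had a median log2 ratio of -0.45 and the 16 without it -0.28, while their median coding lengths were 441 and 579 bases. Any listed start of a symbol was enough for it to count. A gene counted as without the motif can still hold a pyrimidine run near its listed start, as RPL4 does. The length of the run had a Spearman rho of -0.19 with the ratio over the 62 genes. RPL10 and RPS21, printed above with runs of 12 bases each, were at opposite ends of the ranking with ratios of 0.08 and -1.03.

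The letters CCGGAAG, a core that ETS factors such as GABPα bind, were searched on both strands of the 300 bases around the start. They were in 22 of the 62 core genes (35.5%) and in 12.2% of all symbols. Core genes with and without them had medians of -0.41 and -0.43. AAGATGGC, the core of the YY1 motif, was in 6 of the 62 (9.68%) and in 3.52% of all symbols, with medians of -0.45 and -0.42 for genes with and without it. TATAAA was in 5 of the 62 (8.06%) and in 13.99% of all symbols. A match shows only that the letters are there.

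Ribosomal proteins that carry other names were lower too, and the further lists of the pathway had medians nearer to 0 or above it. The former had log2 ratios of -0.65 for FAU and -0.15 for GNB2L1 (RACK1). Of 14 other TOP messenger RNAs none passed 1.5-fold in either direction, against 7.15% of all rows lower and 9.65% higher, and their median was -0.19. EEF1A1, the elongation factor that brings tRNA, was at 4227 and 3558 FPKM, while EEF2, which moves the ribosome along, was at 1409 and 1809. Of 32 ribosome biogenesis factors none was more than 1.5-fold lower, against 7.15% of all rows, and 3 were higher, a share close to the 9.65% of all rows. Their median was 0.01. The median coding lengths were 1323 bases in the other TOP list and 1621.5 in the biogenesis list, against 462 in core genes.

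In the growth control list, MTOR, its partner RPTOR and the transcription factor MYC were the 3 of 11 genes more than 1.5-fold higher, against 9.65% of all rows, and none was lower, against 7.15%. MYC was at 14.1 FPKM in the WT sample, and 34.5 in the PERK-KO sample, with limits apart. MTOR was at 7.44 and 13.7 FPKM and RPTOR at 7.62 and 11.8. LARP1 was at 77.8 and 85.1 FPKM. Of the 11 genes, 10 were above 0, against 7739 of all 14439 rows. With limits apart, 9 of the 11 were higher, against 26.3% of all rows. Of other genes with 1300 to 2000 coding bases, 809 of 2868 were higher with limits apart, and of longer ones 1763 of 3473. TSC1 and TSC2 were among the 9 of the list, with log2 ratios of 0.52 and 0.56. The median of the list was 0.27, and its median coding length, 1575 bases, was above that of the core genes, 462.

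The mitochondrial ribosome, which is encoded by a separate set of nuclear genes, lay between the cytosolic ribosome and all genes. Its 76 genes had a median of -0.25, and a median coding length of 585 bases. More than 1.5-fold lower were 11 of them (14.5%), against 7.15% of all rows, and none was higher, against 9.65%. Its large (39S) and small (28S) subunits had medians of -0.27 and -0.22.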

How the data were processed

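RNA of WT and PERK-KO HEK293 cells, 1 sample per genotype, was analysed. According to the submitters' processing notes and the study's methods, the authors isolated poly(A) RNA, mapped reads to hg19 (GRCh37) with TopHat2 2.0.13 and computed FPKM with Cufflinks 2.2.1 and Cuffdiff. The deposited FPKM values with their confidence limits were used as given. Strand-specific counting is not stated, so overlapping and antisense genes could not be separated. Read depth is unknown.

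Rows on main chromosomes were used, and 1305 other rows were left out except in an alternative. Log2 ratios had no pseudocount. The counting standard error was taken from the limits (2 SD each). "Lower" or "higher" counts mean a ratio past 1.5-fold, and no p-value was computed because there was 1 sample per genotype. Scripts were tested on simulated data. Coding lengths came from canonical transcripts of GENCODE 44 on GRCh37, matched by symbol, and promoters (250 bases before to 50 after the start) from RefSeq, GRCh38.p14. RefSeq starts of 15 core genes were not used here.

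The members and lists were chosen with earlier results of these data known. The text names RPL21 and rows at its locus, the 5 lowest and 5 highest core genes by ratio with at least 10 FPKM, members more than 3 scaled median absolute deviations from the core median, the 3 highest and 3 lowest by WT level, paralogs at 1 FPKM or more, members of role lists and read-through rows. Other genes named in single sentences, such as RPL13A, RPS26 and RPSA, were chosen after their values were seen. Alternatives changed the pseudocount, filter, scaling, fold, denominators and handling of pseudogene rows. Python 3.11.15, numpy 2.4.6, pandas 2.3.3, scipy 1.17.1 and matplotlib 3.10.9 were used. Some genes are not reported here by name.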

Additional observations from a re-analysis of the deposited data

How the results depend on the processing

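The median of the ribosomal protein genes stayed between -0.46 and -0.42, and the 40S to 60S difference between -0.065 and -0.040, under other pseudocounts, filters, scalings, haplotype sums, core genes alone or paralogs included, and, chosen after seeing the data, with pseudogene rows summed or RPL21 left out. The number more than 1.5-fold lower was 20 to 28 under those settings, and none was higher. By construction the count followed the fold, with 3 lower past 2-fold, and 60 lower and 1 higher past 1.2-fold. The share of summed FPKM was 29.8% in the WT and 26.3% in the PERK-KO sample without small RNA rows, and 28.6% and 24.0% without the 10 highest other rows. Scaling all genes to a median of 0 took 5 further genes past 1.5-fold (RPL31, RPL34, RPL35, RPL36A and RPS13). No direction turned past its counting error. No paired analysis was possible because each genotype had 1 sample, and no replicate could be left out. Unknown depth limits the low rows, such as RPL10L and the read-through rows.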

Other observations

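Core genes that hold small nucleolar RNA rows within their loci (27) had a median log2 ratio of -0.37 and those without (50) of -0.45, with median coding lengths of 528 and 435 bases. The 25 pseudogene rows tested had a median of -0.39, near the core median of -0.42. The row of RPL13AP20, on chromosome 12, reached 846 FPKM in the WT sample, and 549 in the PERK-KO sample. That is above the RPL13A row at 712 and 521, but RPL13AP5, which overlaps the RPL13A locus, held 5914 and 4242. How reads were divided among these rows was not tested. Rows of small RNA genes together held 21.3% of the summed FPKM in the WT sample, and 23.3% in the PERK-KO sample.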
